A study of Mus musculus with 8 samples.

Results

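RANK-Fc given in both of 2 transplant passages was compared with no RANK-Fc in either, in mouse mammary tumours carrying the MMTV-PyMT transgene. The comparison holds 5 of the 16 tumours measured: the 3 passage 2 tumours whose labels carry RANK-Fc in both positions of the group code, and the 2 passage 2 tumours labelled as control in both. MMTV-PyMT tumours arise in the mammary epithelium because a mouse mammary tumour virus promoter drives the polyomavirus middle T oncogene there. Pieces of these FVB tumours were placed in the mammary gland of wild-type FVB mice, so the host kept its own RANK, RANK ligand, stroma and immune cells. RANK-Fc was injected into the peritoneum at 10 mg/kg, 3 times a week. For passage 2 tumours the labels name the earlier treatment neoadjuvant and the later one adjuvant. The labels of the passage 1 RANK-Fc tumours call the treatment adjuvant. From the order of the group codes, the neoadjuvant treatment of passage 2 tumours is taken to have been given in passage 1.

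The groups are called prior and current RANK-Fc (3 tumours), prior RANK-Fc (3 tumours, treated in the earlier passage alone), current RANK-Fc (3 tumours, treated in passage 2 alone) and passage 2 control (2 tumours). All come from FVB tumour pieces in FVB hosts, and each tumour has its own animal number. Passage 1 supplied 3 RANK-Fc and 2 control tumours. The parent tumour of each passage 2 piece is not given, nor whether several pieces shared 1 parent. Treatment in the earlier passage and descent from a particular parent tumour therefore cannot be told apart.

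RANK, encoded by Tnfrsf11a, is a receptor of the tumour necrosis factor receptor family. In the mammary gland, progesterone-responsive luminal cells secrete its ligand, RANKL, which acts on neighbouring epithelial cells to drive their division and to hold back milk-secreting differentiation. RANK-Fc joins the ligand-binding part of RANK to an antibody tail and takes up RANKL before it reaches the receptor. Signals from RANK run through TRAF adaptors to NF-kB. The secretory end of the lineage is commonly read from milk proteins and from enzymes of lipid and cholesterol synthesis. Pip and the secretoglobins, small secreted proteins also made by salivary and lacrimal glands, are described apart from these.

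Each tumour was measured in 1 colour of a 2-colour array holding 62976 spots. In the 5 tumours, 47.5% to 55.1% of spots were well above background and none was saturated. Treated replicates 1 and 2 and control replicate 1 were labelled with Cy5, treated replicate 3 and control replicate 2 with Cy3. No array held both groups, so the comparison rests on levels normalised across arrays. Log2 intensities correlated across genes at 0.971 to 0.989 between treated tumours, at 0.986 between the controls and at 0.971 to 0.990 between the groups. The luminal keratin genes Krt8 (12.91 to 13.71) and Krt18 (15.63 to 16.16) and the epithelial adhesion gene Epcam (11.80 to 12.55) were well measured in all 5 tumours, and the label gives the tissue as mammary tumour.

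Of the genes tested, 10 were higher after prior and current RANK-Fc than in passage 2 controls, and 0 were lower. That is 0.0707% of 14147 genes tested with limma at a Benjamini-Hochberg adjusted p under 0.05. Without adjustment, 808 genes lay higher (5.71%) and 452 lower (3.2%) at p under 0.05, 8.91% in all. Of the 10, 7 are secretoglobins, and the others are Pip, Cpd and Tesc. Each of the 10 was higher in all 3 treated tumours than in both controls. A gap of that kind was found for 11.3% of all genes with the treated tumours above, and for 8.59% with them below. A permutation test of a single gene with 3 tumours against 2 cannot go below p = 0.1, so the calls rest on the spread that the fit shares over 16 tumours and 14147 genes.

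Pip, prolactin-induced protein, is secreted by mammary, salivary, lacrimal and sweat glands. Its log2 intensity was 10.89, 11.10 and 11.97 in prior and current RANK-Fc tumours, against 5.95 and 6.58 in controls. The groups stood far apart, and the probe was well above background in all 3 treated tumours and in 1 of the 2 controls. The log2 difference was 5.21 ± 0.43 (SE, limma, adjusted p = 0.000394), the smallest p of the comparison. It was 5.05 between the tumours in Cy5 and 5.38 between those in Cy3.

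The secretoglobins called here belong to the Scgb1b and Scgb2b families, the alpha and the beta-gamma subunits of the mouse androgen-binding proteins. These are small secreted proteins that pair with each other and are known from saliva and tears. The RefSeq table places all 48 named genes of both families on chromosome 7.

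Scgb2b20 had log2 intensities of 14.51, 14.81 and 16.21 in prior and current RANK-Fc tumours and 9.82 and 10.94 in controls. Its difference was 5.12 ± 0.59 (SE, limma, adjusted p = 0.00427). Scgb2b2 followed closely, with 14.05, 14.44 and 15.64 in the treated tumours and 9.21 and 10.56 in controls. In both genes the treated tumour in Cy3, replicate 3, was highest and the control in Cy5, replicate 1, was lowest.

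Scgb2b27 stood at 13.20, 13.44 and 15.11 after prior and current RANK-Fc, against 8.64 and 9.64 in controls. Its second probe gave a log2 difference of 3.61, against 5.07 for the brighter probe. Scgb2b15 showed a smaller difference, with 10.35, 10.701 and 11.25 in treated tumours and 8.04 and 8.19 in controls, or 2.78 ± 0.33 (SE, limma, adjusted p = 0.00427). Both groups were tight, and no treated tumour came near a control.

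Among the alpha subunit genes, Scgb1b27 had the largest difference of any gene tested in this fit, 5.65 ± 0.71 (SE, limma, adjusted p = 0.00662). It stood at 11.76, 12.38 and 12.65 in treated tumours and 6.83 and 6.74 in controls. The dimmest values above background in those controls were 6.03 and 5.95, so the size of the difference depends on the processing. Over the other settings it ran from 5.24 to 7.18, and Pip, at up to 8.15, passed it with Agilent's processed signals. Scgb1b30 measured 13.18, 12.83 and 13.13 with treatment, against 8.28 and 6.96 in controls (difference 5.32 ± 0.75, SE, limma, adjusted p = 0.0174). Here the controls differed from each other more than the treated tumours did. A second Scgb1b30 probe gave a log2 difference of 0.81, and the mean of both probes gave 3.07, past the threshold no longer (limma, adjusted p = 0.0523). Scgb1b3 lay at 13.96, 13.69 and 13.68 after prior and current RANK-Fc and at 9.86 and 8.88 in controls. These genes are close copies of each other, so signal at one probe may come from another member.

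Of 36 secretoglobin genes listed, 22 had a probe, 13 were bright enough to be tested and 7 rose, against 0.0707% of all genes. Of the 13, 9 had all treated tumours above both controls, against 11.3% of all genes. Among these, Scgb1b20 (3.55 ± 0.64, SE) and Scgb2b26 (2.27 ± 0.51, SE) did not pass the test. The remaining members tested, Scgb1b7, Scgb3a1, Scgb1b10 and Scgb1c1, had differences of 0.37, 0.05, -0.08 and -0.30 and overlapping groups. Scgb1b10 was bright all the same, at 10.56, 10.82 and 9.80 in treated tumours and 10.57 and 10.39 in controls. Of the 9 with a probe that were not tested, 7 were above background in none of the 16 tumours. The other two, Scgb1a1 and Scgb2b24, were above it in 2 of the 3 treated tumours and in neither control. Scgb1a1 nevertheless had like levels in both groups, 6.31, 6.38 and 6.30 with treatment and 6.33 and 6.32 in controls. Scgb2b24 was dim as well, at 6.32, 6.52 and 7.35 in treated tumours, against 6.19 and 6.06 in controls. Because the brightness filter admits a gene through any group in which it is bright, these counts say nothing of the family as a whole. With no filter its median was 0.31, against 3.55. The family was listed with earlier results of these data known, and its close copies may share signal. The shares set beside those of all genes are therefore a description only.

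**Figure D1:**
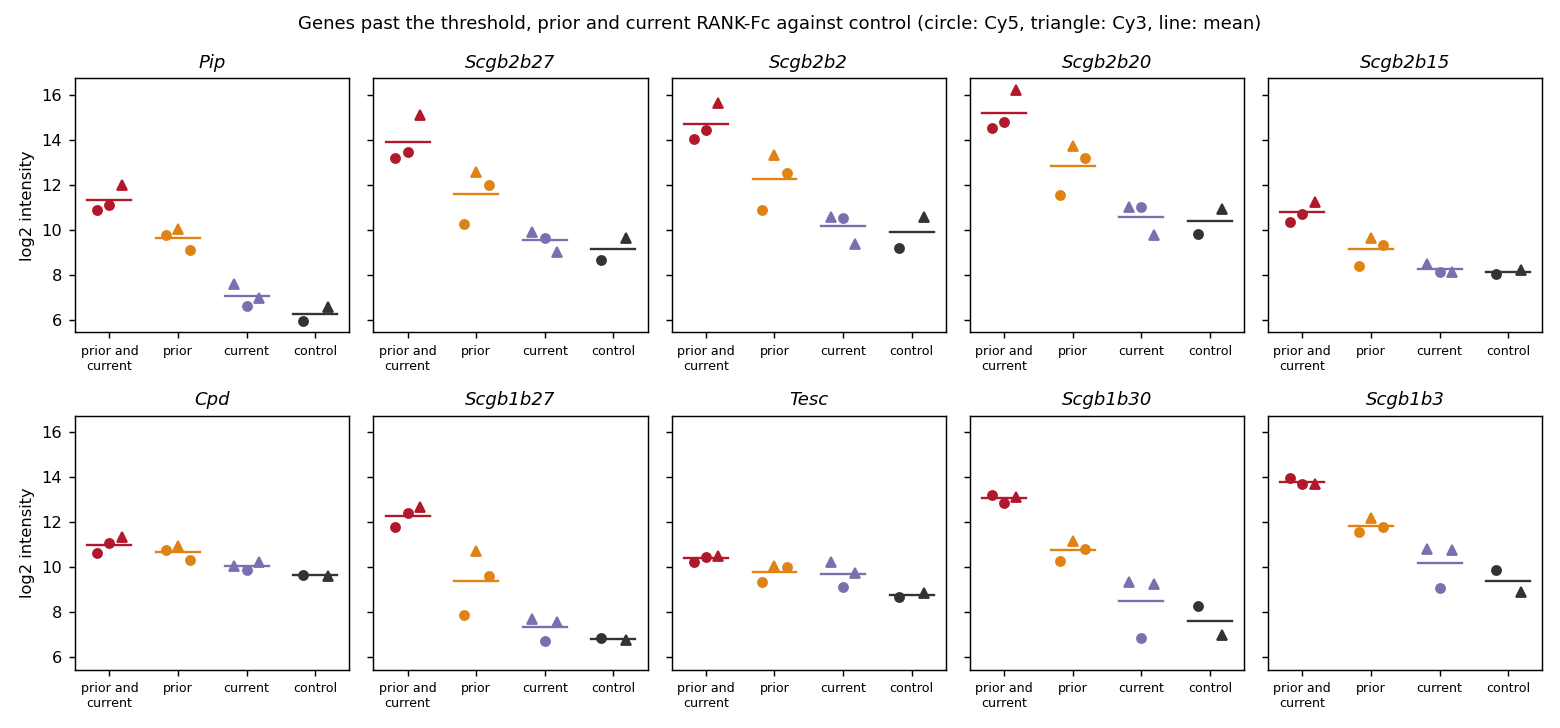
Log2 intensity (vertical axis) of the 10 genes past the threshold in each of the 11 passage 2 tumours, by group (horizontal axis). Circles are Cy5, triangles Cy3 and lines group means; the prior and current RANK-Fc tumours lie above both controls in every panel, and current RANK-Fc tumours lie near the controls for Pip and the secretoglobins.

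Sequences upstream of these genes are shown because these family members differed in the same direction. Each line gives the 100 bases before the annotated start, on the strand of the gene, from RefSeq on assembly GRCm38.p6. Capitals mark TATAAA in Pip. In the Scgb1b lines, capitals mark the longest run that both share, and in the Scgb2b lines the longest run shared by 3 of the 4. Scgb2b27 holds no such run and stands in lower case throughout. The coordinates, in the same order, are chr6:41847449-41847548 on the plus strand, chr7:31302669-31302768 plus, chr7:32829654-32829753 minus, chr7:33366320-33366419 minus, chr7:34013943-34014042 minus, chr7:34021381-34021480 plus and chr7:34095331-34095430 plus.
Pip: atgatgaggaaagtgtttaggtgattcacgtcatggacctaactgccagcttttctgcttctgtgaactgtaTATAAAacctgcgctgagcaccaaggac
Scgb2b2: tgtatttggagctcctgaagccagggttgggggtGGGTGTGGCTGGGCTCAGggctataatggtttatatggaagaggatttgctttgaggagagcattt
Scgb2b15: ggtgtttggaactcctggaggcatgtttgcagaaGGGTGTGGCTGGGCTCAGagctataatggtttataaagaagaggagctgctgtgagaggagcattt
Scgb2b20: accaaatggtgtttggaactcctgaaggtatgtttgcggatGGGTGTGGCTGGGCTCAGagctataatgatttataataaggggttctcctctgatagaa
Scgb2b27: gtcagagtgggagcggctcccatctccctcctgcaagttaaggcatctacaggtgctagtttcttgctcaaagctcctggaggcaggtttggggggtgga
Scgb1b27: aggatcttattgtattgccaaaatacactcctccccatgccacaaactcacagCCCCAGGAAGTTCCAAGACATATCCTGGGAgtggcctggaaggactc
Scgb1b30: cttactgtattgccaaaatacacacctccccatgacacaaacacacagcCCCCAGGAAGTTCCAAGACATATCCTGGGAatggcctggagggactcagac
The run of Scgb2b2, Scgb2b15 and Scgb2b20, GGGTGTGGCTGGGCTCAG, is 18 bases long and begins at position -66, -66 and -59 from the start. Scgb2b27, which rose too, with a log2 difference of 5.07, lacks an exact copy, also in the wider window. No run over 6 bases is common to all 4 lines. Only exact matches were searched. The stretch ctcctggaggca stands near the annotated start in Scgb2b27 but further upstream in Scgb2b15, so these lines may not cover matching segments. Among 32851 RefSeq windows from 250 bases before to 50 after a start, the 18-base run stood in 11 (0.0335%), and 11 of the 20 Scgb2b windows held it. The Scgb1b run, CCCCAGGAAGTTCCAAGACATATCCTGGGA, has 30 bases and was found in 3 windows, all of them among the 9 of Scgb1b genes. Because the runs were picked from these genes, their rarity is a description only. Of the 9 called genes with a window, the STAT5 element TTCNNNGAA, which reads the same on both strands, stood in 1, Pip, and in 8.3% of all windows. The steroid receptor hexamer AGAACA, on either strand, stood in 4 (Pip, Scgb2b2, Scgb2b15 and Scgb2b20) and in 19.0% of all windows. TATAAA on the strand of the gene stood in 4 and in 8.32% of all windows. Scgb1b3 was named only. A match of letters shows no binding.

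Cpd encodes carboxypeptidase D, an enzyme that trims proteins in the trans-Golgi network. It had 10.61, 11.05 and 11.33 in prior and current RANK-Fc tumours and 9.66 and 9.61 in controls, a log2 difference of 1.44 ± 0.17 (SE, limma, adjusted p = 0.00427). The controls were almost equal, and the lowest treated tumour still stood well above them. Its second probe gave 0.88.

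Tesc encodes tescalcin, a calcium-binding protein that acts on a sodium-proton exchanger. Its treated tumours lay at 10.22, 10.45 and 10.47 and its controls at 8.69 and 8.85, with a difference of 1.63 ± 0.23 (SE, limma, adjusted p = 0.0161).

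The number of calls moved with single tumours. Without passage 2 control replicate 2, 1 gene (Pip) was past the threshold; without control replicate 1, 17 were. Leaving out a treated tumour gave 23, 9 and 11 genes for replicates 1, 2 and 3. Pip stayed past the threshold in all 5 of these fits, but Scgb1b30 in 3 and Tesc and Scgb1b3 in 2 each. The other 6 genes did so in 4, each missing it without control replicate 2. With the 2 groups fitted alone, the limma adjusted p was 0.0588 for Tesc and 0.432 for Cpd, and with passage 2 tumours only it was 0.136 for Tesc. Red channels minus green, fitted over all arrays, ran from -1.35 to -0.35 for the 10 genes, and the fit without a dye term called none.

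The next 24 genes by p, 12 on each side, did not pass the test. In all 24 the groups did not overlap, against 11.3% of all genes with the treated tumours above and 8.59% below. The 24 were picked by the smallest p in these same tumours, so that gap is no further support. On the higher side Spdef, a transcription factor of secretory epithelium, had 11.39, 12.19 and 13.42 in treated tumours and 9.72 and 10.698 in controls. Its difference was 2.27 ± 0.39 (SE, limma, adjusted p = 0.0574). 2310057J18Rik reached 14.53, 13.74 and 16.15 with treatment, against 10.00 and 11.22 in controls, with a difference of 4.42 ± 0.81 (SE). Krt23, a type I keratin, differed by 2.58 ± 0.48 and Chn2, a GTPase-activating protein for Rac, by 2.17 ± 0.37, with a second Chn2 probe at 0.96.
Smaller positive values belonged to Gdpd1, a lipid phosphodiesterase (1.42), the nuclear receptor Nr4a1 (1.35), Sel1l3 (1.04) and Armcx3 (0.96). The scaffold protein Grip1 (0.77), the peroxisomal enzyme Dhrs7b (0.73) and Cyp51 (0.72) followed. A second kept probe gave only 0.31 for Armcx3 and 0.17 for Grip1.

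On the lower side, Slc15a2, a proton-coupled peptide transporter, stood at 9.57, 9.47 and 9.45 in prior and current RANK-Fc tumours and 10.51 and 10.62 in controls. Its difference of -1.09 ± 0.18 (SE) had a limma adjusted p of 0.0525. Fgfr3, a receptor for fibroblast growth factors, had 8.43, 8.73 and 8.15 in treated tumours, against 10.14 and 10.54 in controls, a difference of -1.90 ± 0.32 (SE, limma, adjusted p = 0.0563). A second Fgfr3 probe gave -0.49. Chrdl2, a BMP antagonist, measured -1.37, the metallothionein gene Mt2 -1.37, Gdpd3 -1.35, Gramd1b, a carrier of cholesterol from the plasma membrane, -0.81, and the interleukin 6 receptor gene Il6ra -0.77. Akap12 and Hilpda, a lipid droplet protein named for its response to hypoxia, both measured -0.73. Second probes gave -0.34 for Akap12 and -0.72 for Hilpda. Amdhd2, Rell1 and Cetn1 lay at -0.62, -0.60 and -0.51.

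**Figure D2:**
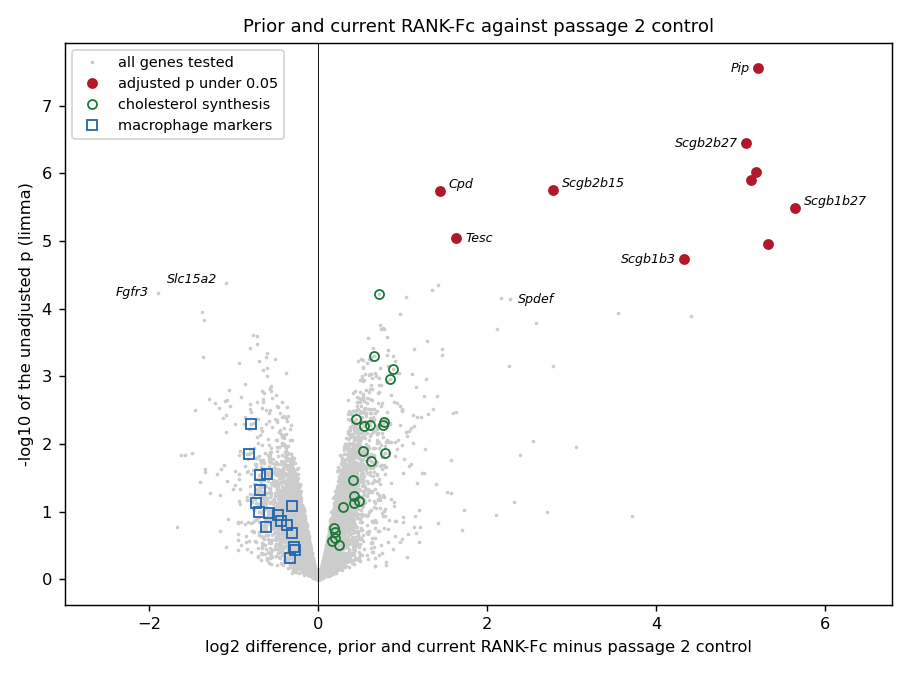
Log2 difference, prior and current RANK-Fc minus passage 2 control (horizontal axis), against -log10 of the unadjusted limma p (vertical axis) for the 14147 genes tested. The 10 filled circles are the genes past the threshold, all on the right; the 22 cholesterol synthesis genes (open circles) lie right of 0 and the 17 macrophage markers (squares) left of it.

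Components of the RANK pathway showed no call. Tnfrsf11a itself, the RANK gene, had 12.40, 11.998 and 12.17 in prior and current RANK-Fc tumours and 12.60 and 12.59 in controls. All treated tumours lay below the controls, by -0.48 ± 0.20 (SE), with an unadjusted p of 0.0354 and an adjusted p of 0.504 in limma. RANK-Fc acts on the ligand, so this level checks no label. Tnfsf11, the ligand gene, was above background in 1 of 16 tumours and in none of these 5, and was not tested. Tnfrsf11b, the gene of the natural decoy osteoprotegerin, had 6.78, 8.51 and 6.995 with treatment and 7.85 and 7.04 in controls, with groups that overlapped.
Of 27 pathway genes tested, 13 were higher and 14 lower, with a median of -0.04 against 0.003 for all genes. The adaptor gene Traf6 (-0.23), the NF-kB subunit gene Relb (-0.29), the kinase regulator Ikbkg (-0.20) and Lgr4 (-0.30), a further receptor for RANKL, lay below both controls in every treated tumour, as did 8.59% of all genes. Among 22 NF-kB target genes, 5 were higher and 17 lower, with a median of -0.21, and none passed the test. That median was -0.03 without treated replicate 2 and -0.40 without treated replicate 3, and it was above 0 with green channels alone (0.04) and with median centring (0.03), which shifted the median of all genes to 0.20.

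Cholesterol synthesis genes lay higher as a group, although none passed the test. All 22 had a positive difference, as did 50.7% of all genes, and the median was 0.51. In 16 of the 22 every treated tumour exceeded both controls, against 11.3% of all genes, and 13 had an unadjusted p under 0.05 on the higher side, against 5.71%. Dhcr7, the last enzyme of the pathway, had 10.79, 10.66 and 11.25 with treatment and 9.83 and 10.29 in controls. The difference was 0.85 ± 0.20 (SE, limma, adjusted p = 0.187).
Cyp51, which demethylates lanosterol, stood at 8.14, 7.89 and 8.36 in treated tumours, against 7.44 and 7.44 in controls (0.72 ± 0.12, SE, limma, adjusted p = 0.0563). Idi1, an isomerase early in the pathway, differed by 0.79. The mean level of the 22 genes was 10.42, 10.15 and 10.53 after prior and current RANK-Fc and 9.86 and 9.91 in controls. Its lowest treated tumour was replicate 2. The rise was not particular to treatment in both passages. Prior RANK-Fc tumours (9.98 to 10.30) and current ones (10.11 to 10.46) lay above both passage 2 controls too. So did passage 1 tumours, at 10.15 to 10.33 with RANK-Fc and 10.00 and 10.05 without. Against the same controls the list median was 0.28 for prior and 0.40 for current RANK-Fc. Insig1, which holds the sterol sensor in the endoplasmic reticulum, had a difference of 0.88 ± 0.19 (SE, limma, adjusted p = 0.150). Of 25 milk lipid genes tested, that one included, 19 were higher and 6 lower, with a median of 0.20 (0.09 without treated replicate 3).

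Milk protein genes had no common direction. Of 30 tested, 16 were higher and 14 lower, none passed the test, and the median was 0.13 (0.03 without control replicate 2). The groups did not overlap for 3 with treatment above (Lpo, Abcg2 and Folr1), against 11.3% of all genes, and for 1 with treatment below (Fabp3), against 8.59%. The casein gene Csn1s2a had 14.35, 11.72 and 13.54 in prior and current RANK-Fc tumours and 10.75 and 11.78 in controls, so treated replicate 2 fell within the controls' range. Csn2 overlapped too, at 15.50, 13.07 and 14.69 with treatment and 13.28 and 13.79 in controls. Cel, a lipase secreted in milk, had 12.18, 10.97 and 10.00 in treated tumours and 12.16 and 12.09 in controls, so treated replicate 1 reached the controls.

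Proteins secreted by salivary and lacrimal glands were followed because Pip and the androgen-binding proteins are products of those glands. Of 37 such genes with a probe, 24 were tested and 1 rose, against 0.0707% of all genes. That gene is Pip, which prompted the list, so the call says nothing of the list. In 10 of the 24, Pip among them, every treated tumour lay above both controls, against 11.3% of all genes. In 1 (Prb1) every treated tumour lay below them, against 8.59%. The brightness filter admits a gene through any group in which it is bright, the treated group included. These counts therefore describe the 24 genes tested and not the list as a whole, whose median was 0.13 with no filter. Car6, a secreted carbonic anhydrase, had 14.09, 13.92 and 15.40 in prior and current RANK-Fc tumours and 11.65 and 12.35 in controls (2.78 ± 0.62, SE, limma, adjusted p = 0.163). Klk1b26, a glandular kallikrein, differed by 1.60 ± 0.44, and Klk1b22 by 0.96 ± 0.22. The water channel gene Aqp5 (0.91) and Bhlha15, a transcription factor of exocrine secretory cells (0.82), were bright in both groups, at 12.05 and above.
Other products of those glands showed no such gap. Amy1, an amylase gene, stood at 6.54, 6.83 and 6.87 in treated tumours, against 6.93 and 6.67 in controls, with overlapping groups. Smgc, Bpifa1, Odam, Sval1, Sval2 and Sval3 were above background in none of the 16 tumours, and 10 of the 13 untested genes with a probe were likewise. The mean level of the 24 genes ranged over 8.44 to 8.85 with treatment and 7.89 to 7.92 in controls. Without treated replicate 1 their median was 0.27, against 0.73 with all tumours.

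Macrophage markers lay lower as a list, although none passed the test. All 17 macrophage markers tested had a negative difference, with a median of -0.58, and 9 had every treated tumour below both controls, against 8.59% of all genes. Cd68, a lysosomal protein of macrophages, had 10.28, 10.77 and 9.67 in prior and current RANK-Fc tumours and 11.02 and 10.96 in controls. C1qc, a complement subunit made by macrophages, had 11.58, 11.72 and 11.02 with treatment and 12.35 and 11.92 in controls. Csf1r, their growth factor receptor, was tighter: 12.38, 12.30 and 12.32 in treated tumours and 12.89 and 12.47 in controls. In bulk tumours, fewer cells of a type and less RNA per cell cannot be told apart. Without passage 2 control replicate 1 the median was -0.36.
T and NK cell markers also lay low, with a median of -0.58 over 20 genes, and none passed the test. Of the 20, 18 were lower, as were 6977 of all 14147 genes tested. In 11 of them all treated tumours lay below both controls, against 8.59% of all genes. The mean level of the list was 7.44 to 8.03 with treatment and 8.06 and 8.60 in controls, so the gap was narrow. Cd3e, part of the T cell receptor complex, had 9.61, 9.51 and 8.92 after prior and current RANK-Fc and 10.24 and 9.73 in controls. Treated replicate 2 was lowest for most of the list, and without it the median was -0.26. Thy1, also made by fibroblasts, differed by -0.57. The cytotoxic gene Gzmb (0.10) and Prf1 (0.00) did not follow. B cell markers (5 tested, median -0.01), neutrophil markers (6, -0.07) and endothelial markers (14, -0.04) lay near 0.

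Hypoxia and glycolysis genes gave 19 of 22 lower with a median of -0.31, and in 3 of the 22 every treated tumour lay below both controls, against 8.59% of all genes. Vegfa, a growth factor for vessels, had 10.74, 11.88 and 9.94 in prior and current RANK-Fc tumours and 11.91 and 11.31 in controls. Treated replicate 3 was lowest, and without it the list median was -0.15. Slc2a1, the glucose transporter GLUT1, did separate, at 11.74, 11.96 and 10.86 with treatment, against 12.26 and 12.02 in controls.
Interferon response genes (22, median 0.01) varied within both groups: their mean level was 10.78, 9.48 and 10.92 in treated tumours and 11.32 and 9.63 in controls. Adipocyte markers did so too, at 9.12, 8.67 and 9.59 with treatment and 9.44 and 8.04 in controls. Their median of 0.40 over 13 genes was accordingly not a difference beyond the spread. Proliferation genes (31, -0.02), fibroblast markers (18, -0.11), and luminal progenitor (14, 0.08) and hormone-sensing luminal markers (13, -0.01) also had medians near 0.

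**Figure D3:**
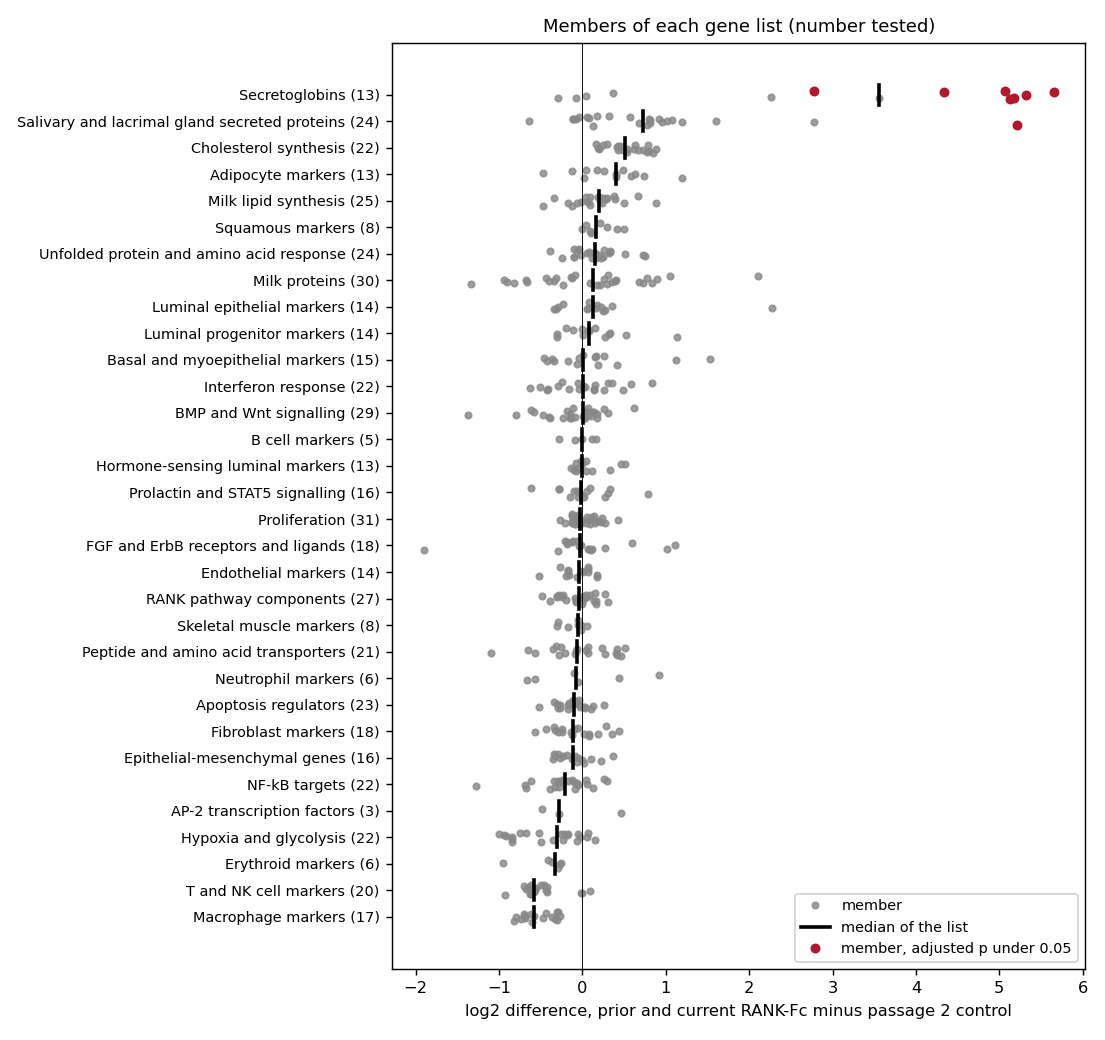
Log2 difference, prior and current RANK-Fc minus passage 2 control (horizontal axis), for every tested member of 32 gene lists (rows, with the number tested). Dots are genes, red where the adjusted p was under 0.05, and bars are list medians; secretoglobins stand at the top (median 3.55) and T and NK cell and macrophage markers at the bottom (both -0.58).

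**Figure D4:**
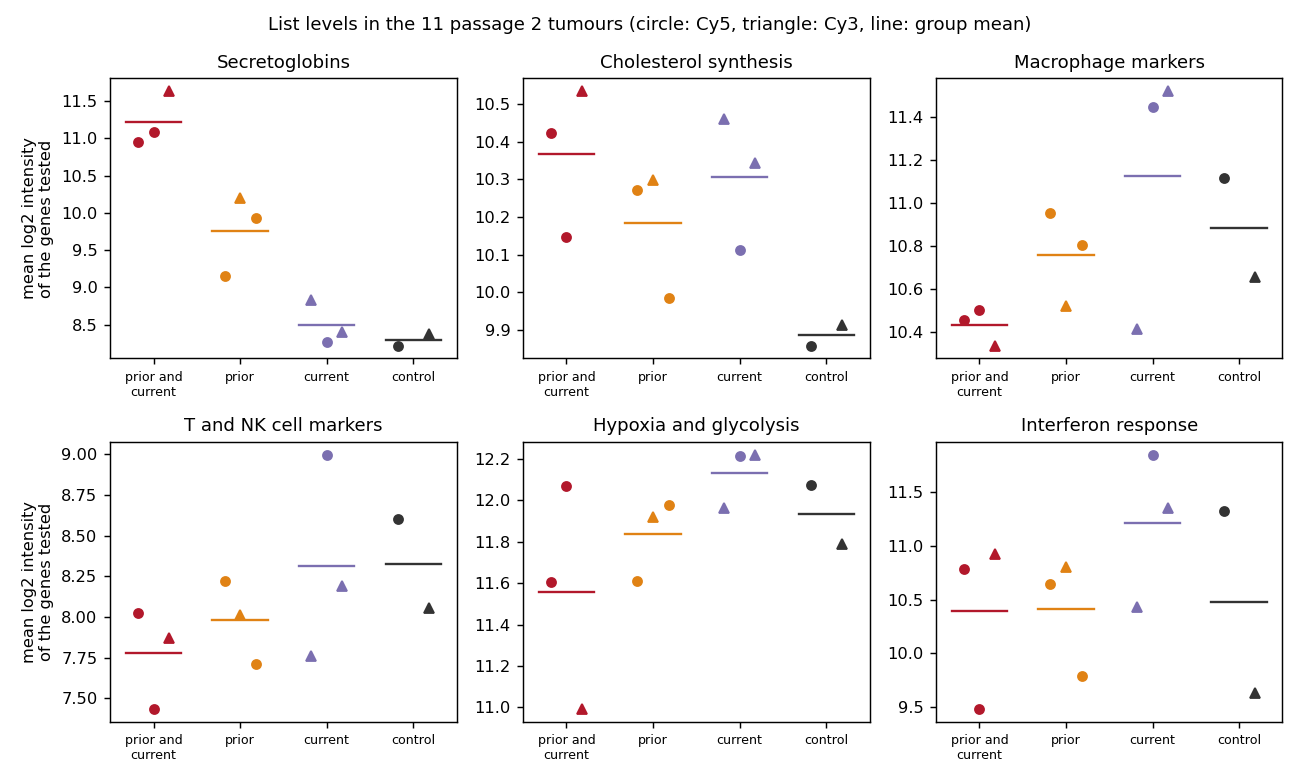
Mean log2 intensity of the tested genes of 6 lists (vertical axis) in each of the 11 passage 2 tumours, by group (horizontal axis); circles are Cy5, triangles Cy3, lines group means. Cholesterol genes of the prior and current tumours (10.15 to 10.53) lie above the controls (9.86 and 9.91), macrophage markers (10.34 to 10.51) below them (10.66 and 11.12), and interferon genes overlap. Cholesterol genes also lie above the controls after prior treatment alone and after current treatment alone.

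What treatment in both passages adds to each passage alone was asked next. Against prior RANK-Fc, 0 of 14147 genes passed the test in limma, and 1398 (9.88%) had an unadjusted p under 0.05. Pip nonetheless lay higher in every prior and current tumour (10.89, 11.10 and 11.97) than in every prior one (9.77, 10.01 and 9.10), with a difference of 1.73 ± 0.37 (SE, adjusted p = 0.184). Scgb2b27 and Scgb2b15 differed by 2.36 ± 0.45 and 1.65 ± 0.28, and Asns, asparagine synthetase, by 0.83 ± 0.15, each with a limma adjusted p of 0.167. At the same adjusted p, the lower side was led by the survival gene Bcl2 (-0.71 ± 0.12), Sh3bp1 (-0.80 ± 0.13) and the receptor-activity modifier Ramp1 (-0.96 ± 0.17). Bcl2 had 8.99, 9.15 and 8.78 after both treatments and 9.93, 9.39 and 9.69 after the prior one. Against controls, the other probes of Sh3bp1 and Ramp1 gave values between -0.17 and 0.03. Without treated replicate 2, 24 genes passed.

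Against current RANK-Fc, 16 genes rose (0.113%) and 4 fell (0.0283%), 0.141% of those tested. The higher side held Pip, Cpd and the 7 secretoglobins called against controls, but both comparisons use the same 3 treated tumours, so this is no independent support. Pip had 10.89, 11.10 and 11.97 in prior and current tumours, against 7.57, 6.61 and 6.96 in current ones, a difference of 4.60 ± 0.38 (SE, limma, adjusted p = 0.00042). Krt23 rose by 2.82 ± 0.43 and Etv1, an ETS transcription factor, by 1.82 ± 0.28 (SE, limma, adjusted p = 0.0298 for both). Gdpd1 (1.21), Cep68 of the centrosome (0.83), Mien1 (0.70), the ectonucleotidase gene Entpd3 (0.69) and D030028A08Rik (0.68) made up the rest of the higher side. Against controls, second kept probes gave only 0.63 for Etv1 and 0.39 for Cep68. The brighter Etv1 probe differed there by 1.98 in Cy5 and 1.09 in Cy3, and that of Cep68 by 0.51 and 1.15.
Lcn10, a lipocalin, fell by 1.35 on the log2 scale. It measured 6.52, 6.58 and 6.29 after both treatments, above background in 1 of 3, and 7.41, 7.99 and 7.88 after the current one. The nucleotide receptor gene P2ry2 (-0.77), Plau, the urokinase gene (-0.71), and Ninj1, which ruptures the plasma membrane of dying cells (-0.67), also fell. Treated replicate 2 shared an array with current replicate 3, and treated replicate 3 with prior replicate 3. The number of calls moved with the tumours: it was 31, 7 and 6 without treated replicates 1, 2 and 3, and 351 and 6 without current replicates 1 and 3.

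Each treatment's difference from the same 2 controls can be set side by side for the 10 genes. With both treatments they spanned 1.44 to 5.65, with the prior one alone 1.05 to 3.49, and with the current one alone 0.08 to 0.82. Pip gave 5.21, 3.49 and 0.61 for both, prior and current, and Scgb1b27 gave 5.65, 2.92 and 0.38. Spdef gave 2.27, 1.38 and 0.53, while Krt23 was as high with prior treatment alone, at 2.58, 2.59 and -0.25. Slc15a2 (-1.09, -0.51 and -0.69) and Fgfr3 (-1.90, -1.28 and -1.31) were low in all of them. Armcx3, read from its brighter probe, was high in all of them (0.96, 0.99 and 1.08). Cyp51 gave 0.72, 0.19 and 0.49. The shared controls enter each of these values. Untreated passage 1 controls stood apart from them in the same direction for Slc15a2, Fgfr3 and Armcx3. Fgfr3 had 8.27 and 8.81 there, against 10.14 and 10.54 in passage 2 controls. Slc15a2 had 10.04 and 10.41, against 10.51 and 10.62, and Armcx3 10.12 and 10.33, against 8.62 and 8.76.

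Whether the 2 treatments together departed from the sum of each alone was tested as an interaction. It called 0 genes in limma, with 947 (6.69%) at an unadjusted p under 0.05. For Scgb2b15 the departure was 1.57 ± 0.41 and for Scgb2b27 2.04 ± 0.65 (SE, limma, adjusted p = 0.516 and 0.613), so both together exceeded the sum in value without passing the test. The smallest p on the higher side belonged to Cables1 (1.06 ± 0.24), Mgll, a monoglyceride lipase (1.14 ± 0.26), and Gm9 (0.60 ± 0.15). On the lower side were Rftn1, of lipid rafts (-1.48 ± 0.26), Exoc3l4 (-0.94 ± 0.18) and the chemokine gene Cx3cl1 (-1.10 ± 0.21). Each had an adjusted p of 0.516.

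**Figure D5:**
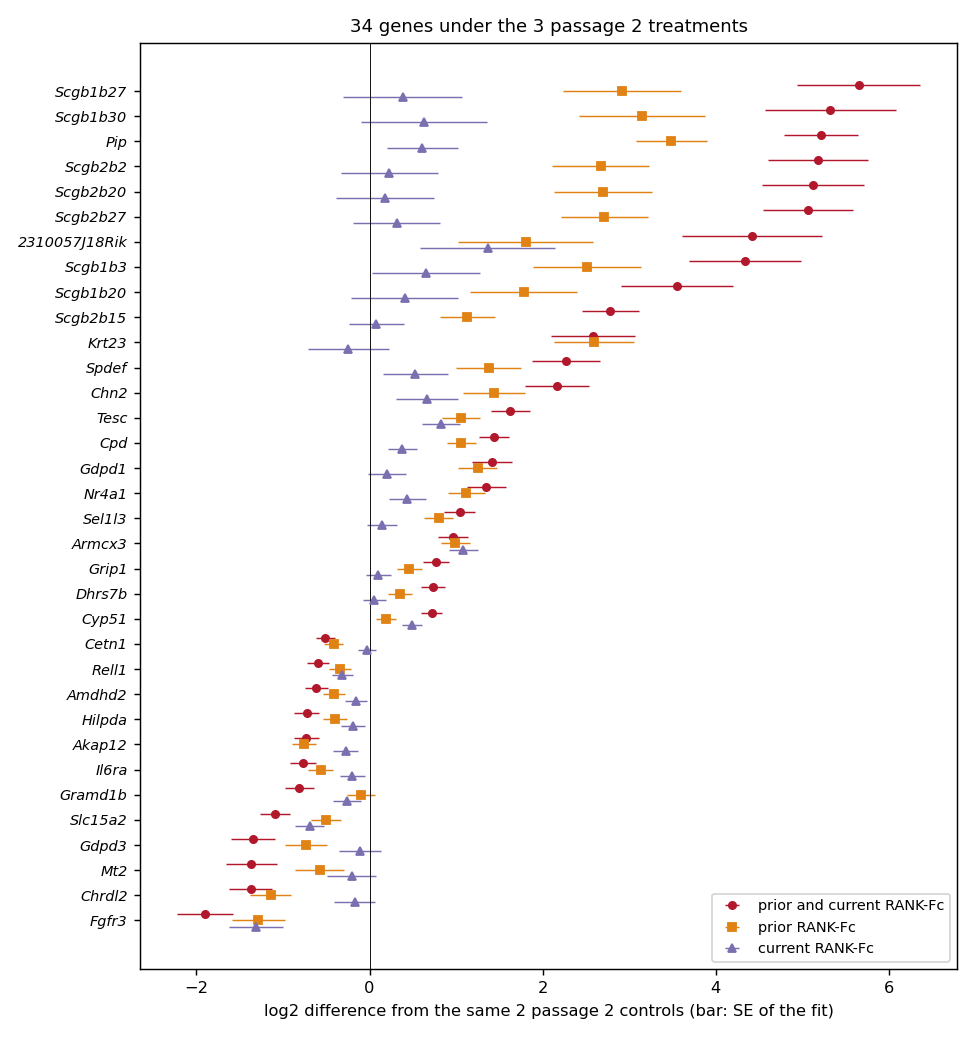
Log2 difference from the same 2 passage 2 controls (horizontal axis) with its SE for the 34 genes named in the first comparison (rows), after prior and current, prior and current-only RANK-Fc. For Pip and the secretoglobins the values after both treatments lie right of those after prior treatment, and current treatment alone lies nearest to 0.

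The genes called were also high in passage 1, controls included. Pip ranged over 13.06 to 14.72 in the 3 passage 1 RANK-Fc tumours and stood at 9.69 and 12.48 in the passage 1 controls. Scgb2b20 had 14.70 to 16.47 in passage 1 RANK-Fc tumours and 13.85 and 15.78 in passage 1 controls. Tesc lay at 12.02 to 12.59 with RANK-Fc and at 12.10 and 12.30 in controls of that passage, above every prior and current tumour (10.22 to 10.47). The mean level of the 13 secretoglobins was 10.95 to 11.63 in prior and current tumours, 9.16 to 10.20 in prior and 8.26 to 8.83 in current ones, and 8.22 and 8.37 in passage 2 controls. In passage 1 it was 10.80 to 11.98 with RANK-Fc and 10.11 and 11.98 without. For Pip and for the secretoglobin mean, levels after treatment in both passages lay within the range of passage 1 tumours, and passage 2 controls lay below all of them. Cpd, at 10.61 to 11.33 after both treatments, stayed below every passage 1 tumour, as Tesc did, with 11.67 to 12.28 in passage 1 RANK-Fc tumours and 11.37 and 11.81 in passage 1 controls.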

How the data were processed

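RNA of 16 tumours was hybridised to 8 arrays of 2 colours on 1 slide with 1 scan time. Agilent Feature Extraction 10.7.3.1 produced the array files, according to their headers. These deposited files give the median pixel intensity of each spot and of its local background on a linear scale, not normalised between arrays. They also hold the authors' processed intensity, corrected within each array for dye, background and spatial trend. A log10 ratio, red over green, and other quality marks of 0 or 1 complete them, per the file headers. Across spots above background, the deposited log10 ratio correlated with background-subtracted red over green at 0.848 to 0.933. A deposited normalised table was not used, since its 8 columns match no label.

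Median intensities were corrected with normexp (offset 50), normalised by loess within arrays and Aquantile between them, and kept as log2 values. Between 239 and 337 uneven or outlying spots per array were set to missing. Probes were named by accession through a RefSeq table of GRCm38.p6, used for names and upstream sequence only, since the array was designed on another assembly; 28026 of 55681 probes got a symbol. Probes were kept where all tumours of any 1 of the 6 groups were well above background, and each gene was read from its brightest kept probe.

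R 4.3.3 with limma 3.58.1 fitted all 16 channels: 6 group means, a dye term, the intraspot correlation and eBayes, leaving 9 residual degrees of freedom. Simulation of this design showed limma's correlation of 0.416 to be too high, and 0.212 was used. This fit gives the values of limma's lmscFit and takes missing spots. Adjusted p-values are Benjamini-Hochberg over the 14147 genes. SE is of the fit. The fit was tested on simulated data. The number of arrays limits the precision.

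Replicates are different animals, numbered here in accession order. The members and gene lists were chosen with earlier results of these data known. Genes named are those past the threshold, the 12 with the smallest p on each side after them, up to 4 members of each list described by largest difference with its defining genes, and in the other comparisons those past the threshold or, if none, the 3 with the smallest p per side. Some list members that separate the groups or overlap were added as contrasts after their values were seen. Some results that the rule would name are not reported here. Figures used Python 3.11.15 and matplotlib 3.10.9.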

Additional observations from a re-analysis of the deposited data

Results flagged for a closer look

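One probe without a gene symbol in the RefSeq table, A_55_P2097626, lay outside the genes tested and showed a signal above the controls. It had log2 intensities of 12.76, 13.41 and 14.06 in prior and current RANK-Fc tumours and 6.87 and 7.22 in passage 2 controls, a log2 difference of 6.673 (SE 0.960). In a limma fit of all 28514 passing probes, chosen after seeing the data, its Benjamini-Hochberg adjusted p was 0.0325. It was 1 of 9993 unnamed probes and was the only one of them past the threshold. The probe measured 7.45, 11.91 and 10.58 in prior RANK-Fc tumours and 8.18, 7.09 and 7.34 in current ones. Groups of 2 or 3 tumours are too small for a test of single outlying tumours.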

How the results depend on the processing

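The count against passage 2 controls was 10 in the fit described. It was 18 with Agilent's processed signals, 18 with median centring, 0 with no dye term, 4 with red channels alone and 20 with limma's uncorrected intraspot correlation, and ran from 1 to 23 when 1 tumour was left out. Against prior RANK-Fc the count of 0 ran from 0 to 24 with 1 tumour left out. Against current RANK-Fc the count of 20 became 0 with no dye term, 9 with red channels alone, 0 with green channels alone, 220 with the uncorrected correlation, 11 with a correlation of 0 and 10 with passage 2 tumours only, and ran from 6 to 351 with 1 tumour left out. The interaction count of 0 became 2 with red and 4 with green channels alone, and ran from 0 to 4 with 1 tumour left out. The cause of these moves was not tested, beyond the fewer tumours in single-colour and leave-one-out fits. Pip stayed past the threshold in 13 of 15 other settings, with a difference of 4.89 to 8.15, the highest with Agilent's processed signals, and whichever tumour was left out. The medians of the cholesterol, macrophage, T and NK cell and hypoxia lists kept their sign in all 16 other settings. The size of some moved widely. The T and NK cell median ran from -1.015 with red channels alone to -0.16 with green channels alone. The hypoxia median ran from -0.74 with green channels alone to -0.07 with median centring. Median centring moved the median of all genes to 0.20; relative to it, the cholesterol median ran from 0.42 to 0.58 and the macrophage median from -0.64 to -0.36 over the settings. With no filter on dim probes the secretoglobin median was 0.31 and the salivary one 0.13, since more dim genes entered. No paired analysis was possible because the labels give no replicate numbers that the groups share.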
